A study of Mus musculus with 6 samples.

Results

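Expression of miR-103, miR-107, miR-33, miR-378 and miR-22, microRNAs (miRNAs) of liver lipid and glucose metabolism, was examined in the mouse liver cancer profile. All probes carrying one of these base names, in any arm, were taken. This gave 5 probes of the 566 mouse miRNA probes on the NanoString panel, 1 for each name. Global miRNA expression had been counted with this assay, in which a colour-coded probe captures each miRNA and captured molecules are counted without amplification.

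RNA came from fresh frozen liver of 3 *Apcfl/fl* mice, labelled as bearing hepatocellular carcinoma (HCC), and of 3 *Apc+/+* mice without tumour, labelled as healthy controls. Both genotypes were on the C57Bl/6 background. The *Apcfl/fl* mice carried the hypomorphic allele on both chromosomes, and their tumours have active Wnt/β-catenin signalling. The methods name no Cre driver or treatment for these animals, and age, sex and the share of tumour in each piece of liver are not given in the sources used here. Genotype and tumour therefore cannot be told apart in this comparison. The p-values measure the spread between the samples of a genotype, which the labels name only by replicate number.

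A miRNA guides the silencing complex to messenger RNAs that pair with its seed, the bases 2 to 8 from its 5′ end, and lowers their translation and stability. Several miRNAs of liver metabolism are made from the transcript of a metabolic gene. miR-103 and miR-107 come from genes of pantothenate kinases, the enzymes that start coenzyme A synthesis, and are known to dampen insulin sensitivity in liver and fat. miR-33 comes from the gene of the sterol regulator SREBP-2 and represses the cholesterol exporter ABCA1. miR-378 comes from the gene of the coactivator PGC-1β, which drives mitochondrial and lipid genes, and miR-22 from a long non-coding RNA of its own.

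Each of these hairpins lies inside the span of its host gene (RefSeq, GRCm38.p6). Mir103-1 lies in *Pank3*, Mir103-2 in *Pank2*, Mir107 in *Pank1*, Mir33 in *Srebf2*, Mir378a in *Ppargc1b* and Mir22 in the long non-coding gene *Mir22hg*. For the 5 hairpins other than Mir378a the tables gave a strand, and it was that of the host. The table lists no exons, so intron and exon were not told apart here, and host gene expression was not measured in this profile. Of the 5 probes, 4 were matched to a mature sequence of the RefSeq table, and they are shown because the seed groups them and because a pair of them is nearly identical. The arm was taken from the miRBase identifier of each probe, and capitals mark the seed.
miR-103 (MIMAT0000546, 3p arm): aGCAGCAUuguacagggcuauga
miR-107 (MIMAT0000647, 3p arm): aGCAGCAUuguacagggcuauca
miR-33 (MIMAT0000667, 5p arm): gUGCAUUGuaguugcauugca
miR-22 (MIMAT0000531, 3p arm): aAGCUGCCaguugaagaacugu
In GRCm38.p6 the mature miR-103 is encoded at chr11:35782447-35782469 and at chr2:131288103-131288125, both on the plus strand, so its probe cannot tell the *Pank3* copy from the *Pank2* copy. Mature miR-107 lies at chr19:34820700-34820722 on the minus strand, miR-33 at chr15:82198127-82198147 and miR-22 at chr11:75463772-75463793, both on the plus strand. miR-103 and miR-107 share the seed GCAGCAU, which no other of the 1679 mature mouse names in the table has. They are identical at 22 of 23 bases and differ by the substitution G22C, counted from the 5′ end of miR-103, with the base of miR-107 last. How far the probe of one counts molecules of the other was not tested. The seeds of miR-33 and miR-22 were each found in 1 mature name.

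The deposited values were estimated counts, not scaled between livers, and the total on mouse miRNAs was 82942 to 133331 per liver. They were rounded, scaled with edgeR's TMM method and compared with its quasi-likelihood test over 174 mouse miRNAs whose mean reached 20 counts. The p-values were adjusted over all 174 (Benjamini-Hochberg). A normalized count is the count divided by the liver's TMM scale. Background was judged from 33 probes for viral miRNAs, whose mean plus 2 SD lay between 13.1 and 27.8 counts in the 6 livers. *Apc+/+* liver 3 stood apart in composition, with a TMM factor of 0.655 against 0.959 to 1.25 in the other livers. Markers of hepatocytes were present in every liver, and the summed normalized count of 6 such miRNAs (miR-122, miR-192, miR-194, miR-101a, miR-101b and miR-802) was 25308 to 40151 in normal and 8468 to 14370.5 in tumour-bearing liver. Most of that sum was miR-122, at 21193 to 36463 in normal and 6016 to 11334 in tumour-bearing liver. The *Apcfl/fl* means of the others ran from 0.40 (miR-802) to 0.76 (miR-192) times the control level. Probe efficiencies differ, so counts are compared between livers and not between miRNAs.

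All 5 miRNAs passed the count minimum. None differed at an adjusted p-value under 0.05 in edgeR's test (0 of 5), where 0% of all 174 miRNAs did. With DESeq2 it was also 0 of 5, where 29 of all 174 passed, and with limma 0 of 5, where 4 of all 174 passed. At an unadjusted p-value under 0.05 miR-107 was lower in *Apcfl/fl* liver and none was higher. That is 1 of 5, beside 10.9% of all miRNAs tested that were lower and 13.8% that were higher by the same rule. These shares moved with the scaling: with the total count as library size 3 of all 174 were lower and 38 higher. The median log2 fold change of the 5 was -0.14, against 0.01 over all 174.

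**Figure D1:**
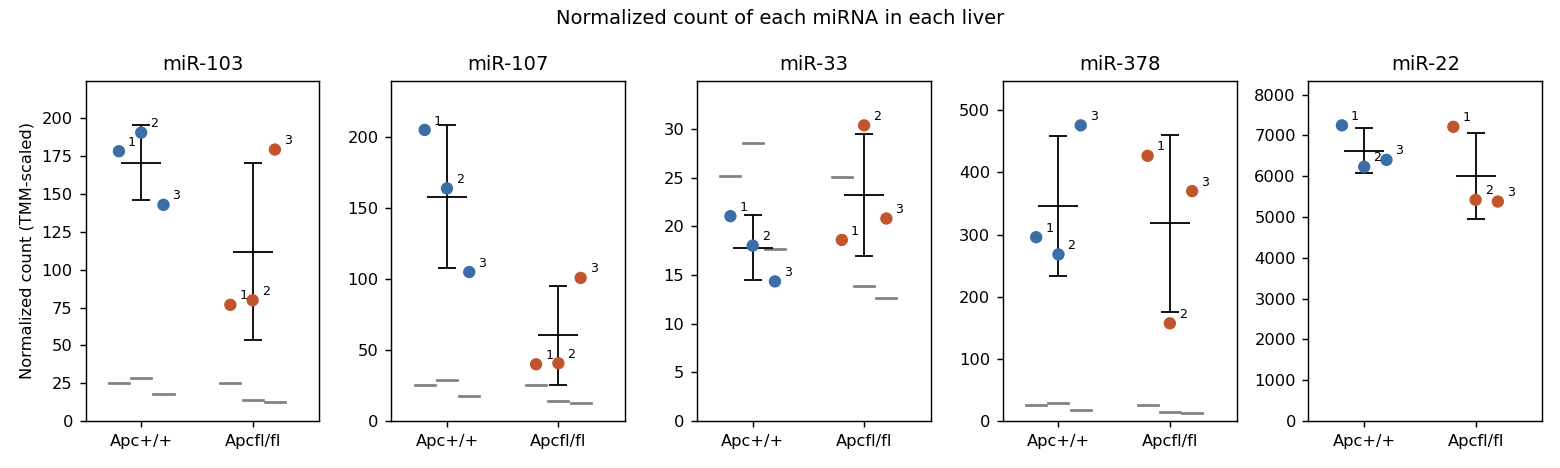
Normalized counts (vertical axes, each starting at 0) of the 5 miRNAs in the 3 *Apc+/+* (blue) and 3 *Apcfl/fl* (orange) livers. Points carry the replicate number, black lines are the mean and SD, and grey ticks are each liver's background limit, not drawn for miR-22. *Apcfl/fl* livers 1 and 2 are low for miR-103 and miR-107, while liver 3 lies near the *Apc+/+* livers, and miR-33 lies near the limit.

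mmu-miR-107 showed the lowest *Apcfl/fl* level relative to *Apc+/+* among the 5. Its deposited counts were 162.33, 133.33 and 85.33 in normal liver, against 44.33, 38.33 and 153.33 in tumour-bearing *Apcfl/fl* liver, and each exceeded the background limit. Normalized, they were 205, 164 and 105 against 39.9, 40.6 and 100.7. *Apcfl/fl* livers 1 and 2 were far below all controls, and liver 3 was only just below *Apc+/+* liver 3, so that the genotypes did not overlap by a narrow margin. The mean was 158 ± 50.3 in *Apc+/+* and 60.4 ± 34.9 in *Apcfl/fl* liver (SD, n = 3 each), or 0.383 times the control level. On the log2 scale the genotypes differed by -1.35 (95% confidence interval -2.46 to -0.25, standard error 0.47), with an unadjusted p-value of 0.023 and an adjusted p-value of 0.13 in edgeR's quasi-likelihood test. It ranked 29 of 174 by p-value. The two-sided exact permutation test gave p = 0.1, the smallest that 3 livers against 3 allow. Of the 5 miRNAs 1 was thus lower and 0 were higher without overlap, where 18.4% and 15.5% of all 174 miRNAs were, or 33.9% in all.

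Single livers decided the call for miR-107. Leaving out *Apcfl/fl* liver 3 gave a log2 fold change of -1.94 (adjusted p = 0.049, edgeR's test), and over all alternatives the adjusted p-value ran from 0.049 to 0.51. The unadjusted p-value rose to 0.10 without *Apc+/+* liver 1, to 0.071 without *Apc+/+* liver 2 and to 0.077 without *Apcfl/fl* liver 1 (edgeR's test). The genotypes overlapped without either of these *Apc+/+* livers, because the scaling was computed anew over the remaining livers. Leaving out a liver cannot by itself create overlap, and the narrow margin lay between *Apc+/+* liver 3 and *Apcfl/fl* liver 3. The fitted value was -1.50 without *Apc+/+* liver 3, and it was below 0 in every alternative run, from -1.94 to -0.89. With the total count as library size the genotypes overlapped and the log2 fold change was -0.99, a scaling that moved the median of all tested miRNAs to 0.45. Set against the median over the whole panel tested, miR-107 was at -1.37 with TMM, at -1.45 with the total count and at -0.84 with no count minimum, and it ran from -1.93 without *Apcfl/fl* liver 3 to -1.06 without *Apcfl/fl* liver 2.

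mmu-miR-103, the near twin of miR-107, had a similar order of livers with a smaller difference. Its counts were 141.33, 155.33 and 116.33 in the controls, against 85.33, 75.33 and 273.33 in the tumour-bearing livers. Normalized counts were 178, 190.7 and 142.9 against 76.8, 79.8 and 179. *Apcfl/fl* livers 1 and 2 lay below every control, whereas liver 3 lay within the control range, so the genotypes overlapped. The means were 171 ± 24.8 and 112 ± 58.4 (SD, n = 3 each). The spread was larger in *Apcfl/fl* liver, with a coefficient of variation of 52.2% against 14.5%, a difference that was not tested. On the log2 scale the genotypes differed by -0.60 (95% confidence interval -1.51 to 0.32, standard error 0.39; edgeR's test, adjusted p = 0.37), no more than the livers of a genotype varied (exact permutation p = 0.3, two-sided). Without *Apcfl/fl* liver 3 it was -1.13 (adjusted p = 0.06, edgeR's test; 0.06 to 0.94 over all alternatives).

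**Figure D2:**
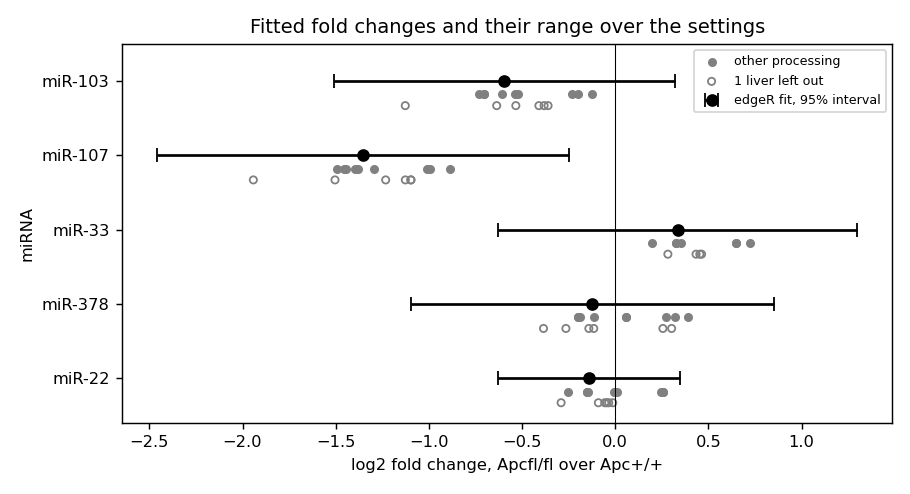
Fitted log2 fold changes of *Apcfl/fl* over *Apc+/+* liver (horizontal axis) for each miRNA, with the 95% confidence interval of the edgeR fit in black, other processing choices as filled grey points and fits without 1 liver as open points. The interval of miR-107 (-2.46 to -0.25) lies below 0, those of the other 4 span it, and the points of miR-378 and miR-22 fall on both sides.

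The balance of miR-103 to miR-107 within a liver does not depend on the scaling between livers. The log2 ratio of their deposited counts was -0.20, 0.22 and 0.45 in the controls, against 0.94, 0.97 and 0.83 in the tumour-bearing livers. All 3 *Apcfl/fl* livers, liver 3 included, lay above all controls, and they lay close together. The means were 0.16 ± 0.33 and 0.92 ± 0.07 (SD, n = 3 each), a difference of 0.76 (standard error 0.19). The two-sided exact permutation test gave p = 0.1, the smallest that the design allows, and p = 0.6 when adjusted over the 6 pairs formed by the 4 probes above background in every liver. So the ratio did not pass the test, which 3 livers against 3 cannot pass. The direction was kept with any 1 liver left out (0.58 to 0.91) and after subtraction of the mean viral probe count (0.86).

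In the other 5 pairs the genotypes overlapped. The log2 ratio of miR-107 to miR-22 differed by -1.32 (standard error 0.58, exact permutation p = 0.2) and that of miR-107 to miR-378 by -1.28 (standard error 0.73, exact permutation p = 0.3). miR-103 differed by -0.56 (standard error 0.51) against miR-22 and by -0.51 (standard error 0.62) against miR-378. Single livers moved these differences widely. The first ran from -1.03 without *Apcfl/fl* liver 3 to -0.21 without *Apcfl/fl* liver 1, and the second from -0.89 without *Apc+/+* liver 3 to -0.025 without *Apcfl/fl* liver 1. That of miR-107 to miR-378 ran from -1.80 without *Apc+/+* liver 3 to -0.77 without *Apcfl/fl* liver 1, and that of miR-107 to miR-22 from -1.84 without *Apcfl/fl* liver 3 to -0.96 without *Apcfl/fl* liver 1. For miR-22 over miR-378 the difference was 0.05 (standard error 0.47, exact permutation p = 0.9), and its sign turned without *Apc+/+* liver 3 (-0.23) or *Apcfl/fl* liver 2 (-0.33).

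**Figure D3:**
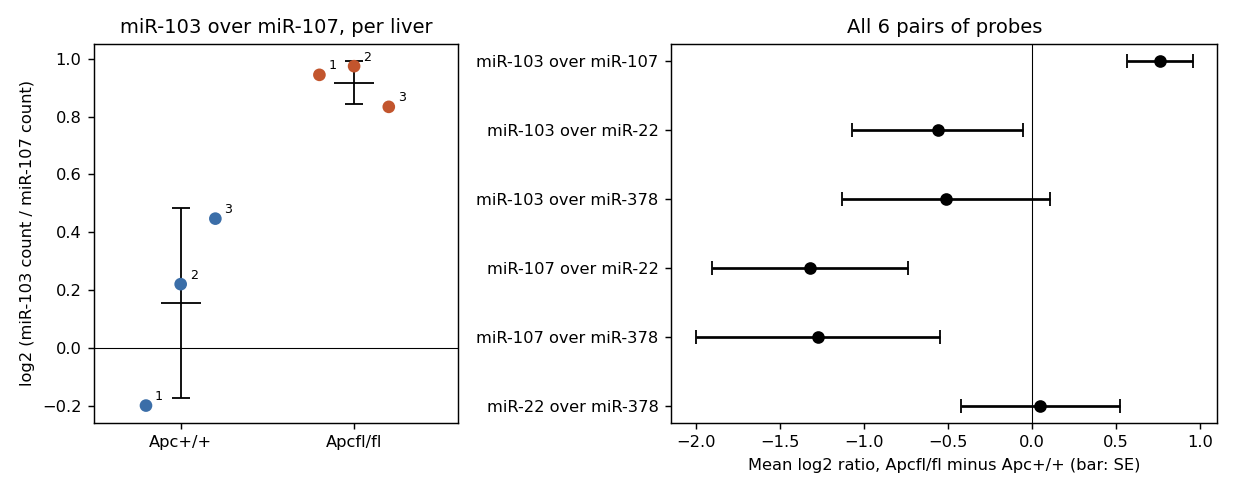
Left, log2 ratio of miR-103 to miR-107 counts in each liver (vertical axis), with the mean and SD in black and *Apc+/+* in blue, *Apcfl/fl* in orange. Right, the difference in mean log2 ratio, *Apcfl/fl* minus *Apc+/+* (horizontal axis), for all 6 pairs of probes, with the standard error as bar. The 3 *Apcfl/fl* livers lie at 0.83 to 0.97, above the highest control at 0.45.

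mmu-miR-33, which limits cholesterol export, was at the edge of detection. Its counts were 16.67, 14.67 and 11.67 in the controls, against 20.67, 28.67 and 31.67 in the tumour-bearing livers. The deposited counts of the *Apcfl/fl* livers were all higher, but this order was lost after scaling, with normalized counts of 21, 18 and 14.3 against 18.6, 30.4 and 20.8. It was above the background limit in 0 of 3 *Apc+/+* and in 2 of 3 *Apcfl/fl* livers, and it passed the count minimum with a mean of 20.7 only through the *Apcfl/fl* livers. The mean normalized counts were 17.8 ± 3.36 and 23.3 ± 6.26 (SD, n = 3 each), where the mean limit in *Apc+/+* liver was 23.8, so no fold change can be given as a bound. The fitted log2 value of 0.34 (standard error 0.41) was computed with a prior count of 2, and how far it depends on that setting was not tested. A difference was not detectable at this depth (adjusted p = 0.65 in edgeR's test, two-sided exact permutation p = 0.3).

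mmu-miR-378 (MIMAT0003151), hosted by the PGC-1β gene, varied widely within both genotypes. Its counts were 234.33, 218.33 and 387.33 in the controls, against 474.33, 148.33 and 563.33 in the tumour-bearing livers, or 296, 268 and 476 against 427, 157 and 369.9 after normalization. The highest value was that of *Apc+/+* liver 3 and the lowest that of *Apcfl/fl* liver 2, and the genotypes overlapped throughout. The means were 346 ± 113 and 318 ± 142.1 (SD, n = 3 each). On the log2 scale the genotypes differed by -0.12 (95% confidence interval -1.10 to 0.85, standard error 0.41; edgeR's test, adjusted p = 0.87; two-sided exact permutation p = 0.8). Its sign rested on single livers, with 0.30 without *Apc+/+* liver 3 and 0.26 without *Apcfl/fl* liver 2. Library sizes set to the total count gave 0.39, below the shift of all tested miRNAs under that scaling.

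mmu-miR-22 was among the 4 probes with the highest counts in every liver, ranking 3 of 566 in each control and 3, 4 and 4 in tumour-bearing liver. Its counts were 5740.67, 5073.67 and 5209.67 in the controls, against 8014.67, 5115.67 and 8189.67 in the tumour-bearing livers. After normalization they were 7245, 6228 and 6399 against 7209.5, 5418 and 5377. *Apcfl/fl* liver 1 matched the highest control, while livers 2 and 3 lay under all controls. The means were 6624 ± 544 and 6002 ± 1046 (SD, n = 3 each), and the coefficient of variation in *Apc+/+* liver, 8.22%, was the lowest of the 5 miRNAs. On the log2 scale the genotypes differed by -0.14 (95% confidence interval -0.63 to 0.35, standard error 0.21; edgeR's test, adjusted p = 0.72; two-sided exact permutation p = 0.3). It was -0.29 without *Apcfl/fl* liver 1 (adjusted p = 0.36, edgeR's test) and -0.013 without *Apcfl/fl* liver 2. Without *Apcfl/fl* liver 1 the genotypes no longer overlapped. That liver was the only *Apcfl/fl* liver not under all controls, so this separation is not read as a result. Library sizes set to the total count gave 0.26, again less than the shift of all miRNAs (0.45), and without the count minimum it was 0.26 beside a median of -0.04 over all 566.

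By rank of the deposited count among the 566 probes, which needs no scaling, miR-107 stood at 49, 60 and 76 in the controls, and at 113, 132 and 82 in tumour-bearing liver. The *Apcfl/fl* ranks were thus all further down than those of the controls. miR-103 stood at 51 to 66 against 59 to 99, and miR-378 at 36 to 38 against 31 to 65. For miR-33, near background, the ranks were 169, 237 and 197 in the controls, and *Apcfl/fl* liver 1 stood at 169 with livers 2 and 3 further up than every control.

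The tested miRNAs most like each of the 5 were listed by the Pearson correlation of log2 normalized counts over the 6 livers, as a description, among 169 candidates that share the same libraries and scaling. For miR-103 these were miR-126-3p (0.99), miR-10a (0.94) and miR-100 (0.90). For miR-107 they were miR-126-3p (0.97), miR-203 (0.95) and miR-10a (0.95). miR-103 and miR-107 had a correlation of 0.94 with each other. miR-126-3p, a miRNA of endothelial cells, had normalized counts of 3310, 3265 and 3075 in the controls, against 2475, 2571 and 3182. Its order of livers was thus close to that of miR-103, with a log2 fold change of only -0.23 (adjusted p = 0.46 in edgeR's test, standard error 0.18). The endothelial list, miR-126-3p and miR-126-5p, summed to 3585 to 3807 normalized counts in normal and 2764 to 3552 in tumour-bearing liver, and its part in the miR-103 and miR-107 values was not tested. In such bulk tissue fewer cells of a type and less RNA per cell cannot be told apart.

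**Figure D4:**
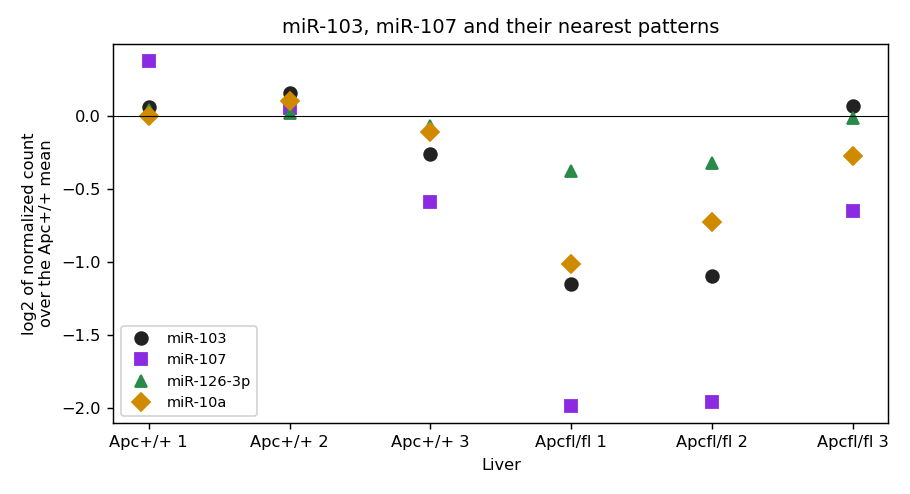
Log2 of the normalized count over the *Apc+/+* mean (vertical axis) in each of the 6 livers (horizontal axis) for miR-103, miR-107 and the miRNAs named as nearest to both, miR-126-3p and miR-10a. All 4 are lowest in *Apcfl/fl* livers 1 and 2, by different amounts, with miR-107 at -1.98 and -1.96 and miR-126-3p at -0.38 and -0.32.

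The patterns of the other miRNAs had different neighbours. Those of miR-22 were miR-99a (0.87), miR-29a (0.81) and miR-193 (0.77). Those of miR-33 were miR-136 (0.94), miR-24 (0.93) and miR-434-3p (0.92), which like it were highest in *Apcfl/fl* liver 2 after normalization. miR-434-3p exceeded the background limit in 0 of 3 *Apc+/+* and 1 of 3 *Apcfl/fl* livers, and miR-136 in 1 of 3 and 3 of 3. Both had a count of 1 in *Apc+/+* liver 3, whereas miR-24 exceeded the limit in every liver. The neighbours of miR-378 were miR-2138 (0.97), miR-1224 (0.93) and miR-2146 (0.87). In normalized counts liver 2 of *Apcfl/fl* thus carried the highest miR-33, a miRNA near background, and the lowest miR-378. By deposited count miR-33 was highest in *Apcfl/fl* liver 3 (31.67, against 28.67 in liver 2).

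Other miRNAs with known roles in liver lipid or glucose metabolism were taken as a list of 25 probes, of which 18 passed the count minimum. Of these 18, the fit put 12 lower in *Apcfl/fl* liver and 6 higher, and 0 reached an adjusted p-value under 0.05 in edgeR's test (5 with DESeq2, where 29 of all 174 did, and 2 with limma, where 4 of all 174 did). At an unadjusted p-value under 0.05, 5 of the 18 were lower and 1 was higher, beside the 10.9% and 13.8% of all 174. Their median log2 fold change was -0.23, where that of all 174 was 0.01. Library sizes set to the total count gave 0.15, where that of all 174 was 0.45. miR-122, which sustains cholesterol and fatty acid synthesis, was at -1.71 on the log2 scale (standard error 0.34), and miR-148a, which represses the LDL receptor, at -1.31 (standard error 0.21). miR-802, a regulator of hepatic glucose output, was at -1.29 (standard error 0.39), miR-143, which impairs insulin signalling, at -1.11 (standard error 0.33), and miR-30c, which limits lipoprotein assembly, at -0.83 (standard error 0.30). miR-223, a myeloid miRNA that also curbs cholesterol synthesis, was at 1.40 (standard error 0.38). The adjusted p-values of these 6 lay between 0.056 and 0.14 in edgeR's test. These 6 were named by the same unadjusted threshold that miR-107 passed (-1.35, adjusted p = 0.13). A p-value of miR-107 near theirs is therefore no sign of likeness.

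Of these 6, miR-122 and miR-802 also stand in the hepatocyte marker list, miR-143 in the mesenchymal list and miR-223 in the blood and leucocyte list. Of the 6 hepatocyte miRNAs 5 were lower at an unadjusted p-value under 0.05 (median log2 fold change -0.69), as were 2 of the 4 tested mesenchymal miRNAs (median -0.91), where 10.9% of all 174 were lower. Of the 8 tested blood and leucocyte miRNAs 2 were higher, miR-223 and miR-155 (median of the 8, 0.59), where 13.8% of all 174 were. miR-155 had a count of 1 in every *Apc+/+* liver and in *Apcfl/fl* liver 1, and 78.33 and 58.33 in *Apcfl/fl* livers 2 and 3. It passed the count minimum only through livers 2 and 3, so its call is not read as a result. The sum of the blood and leucocyte list was 1257 to 1761 normalized counts in normal and 1144 to 5095 in tumour-bearing liver. The mesenchymal sum was 894 to 1318 against 322 to 725. Of the biliary list 3 of 5 were tested, 0 passed that threshold, the sum was 73.6 to 141.6 against 72.3 to 213, and miR-141 and miR-200c were at or under the background limit in every liver. The part of these cell types in the values of miR-107 and of the metabolic list was not tested.

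**Figure D5:**
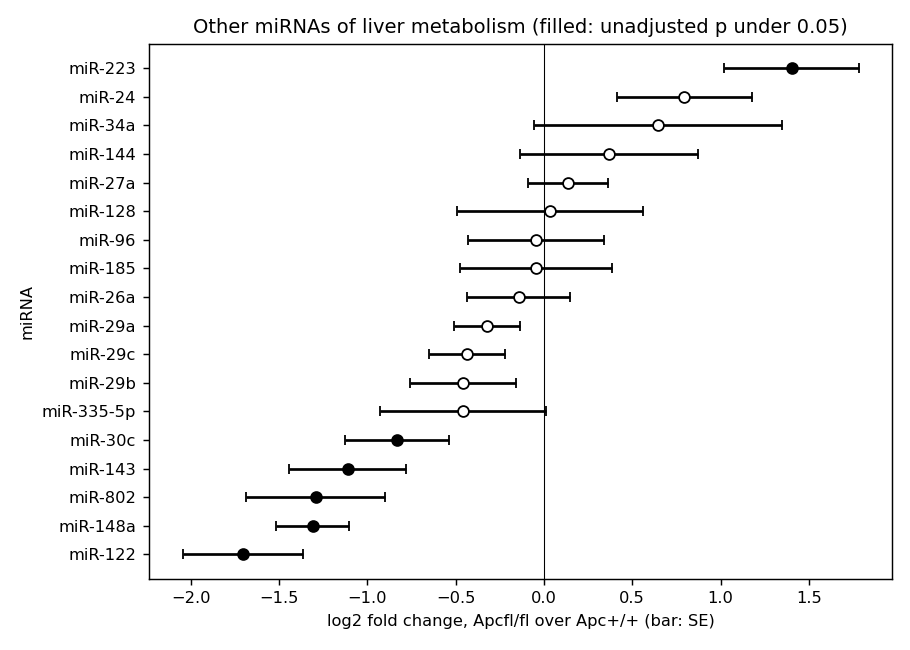
Fitted log2 fold changes of *Apcfl/fl* over *Apc+/+* liver (horizontal axis, bar is the standard error) for the 18 tested miRNAs of the metabolic list, with filled points at an unadjusted p-value under 0.05. The 5 filled points on the lower side run from miR-122 (-1.71) to miR-30c (-0.83), and miR-223 (1.40) is the filled point on the higher side.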

How the data were processed

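The authors deposited estimated counts per NanoString probe, not scaled between samples, for 3 *Apc+/+* and 3 *Apcfl/fl* livers. The lowest value is 1, and a probe's values above 1 share their decimal part (584 of 584 probes that have several). The step and software behind this are not given in the sources used here. Genotype and replicate came from the sample titles.

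Counts of mouse miRNAs with a mean of at least 20 were rounded and tested with edgeR 4.0.16 (TMM, quasi-likelihood, prior count 2) in R 4.3.3. The p-values of this test were adjusted over the 174 miRNAs, those of an alternative over the miRNAs it tested and those of the ratios over 6 pairs. Single values and ratios were also compared with the two-sided exact permutation test. No library was counted as a duplicate, since chi-square per degree of freedom between livers of 1 genotype was 17.2 to 89.1, above sampling noise. Scripts were tested on simulated data. The alternatives were DESeq2 1.42.0, limma 3.58.1, scaling to the 100 miRNAs of highest count, the total count with and without miR-720, no filter, a minimum of 60, subtraction of the mean viral probe count, the replicate number as block, and each liver left out.

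The miRNAs and lists (other metabolic miRNAs, and hepatocyte, blood and leucocyte, mesenchymal, endothelial and biliary markers) were chosen with earlier results of these data known. Named miRNAs were the 5 probes, the 3 nearest patterns of each, and the listed metabolic miRNAs with an unadjusted p-value under 0.05. miR-155 was named after its values were seen. Sequences are from RefSeq, GRCm38.p6. Coordinates belong to the RefSeq sequences alone.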

Additional observations from a re-analysis of the deposited data

How the results depend on the processing

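Depth limited miR-33, which was near background and had no value at a minimum of 60 counts, after viral subtraction, or without *Apcfl/fl* liver 2 or 3. For miR-107 the log2 fold change was -1.94 to -1.10 with 1 liver left out, and it passed the adjusted threshold only without *Apcfl/fl* liver 3, so that 0 to 1 of the 5 did. miR-103 and miR-33 kept their sign in every alternative that gave a value. miR-22 turned to 0.26 with the total count, 0.24 with the total without miR-720, 0.26 with no filter and 0.010 at a minimum of 60. miR-378 turned to 0.39, 0.32, 0.27 and 0.060 in the same order, to 0.057 after viral subtraction, to 0.30 without *Apc+/+* liver 3 and to 0.26 without *Apcfl/fl* liver 2, in a range of -0.38 to 0.30 with 1 liver left out. The ratio of miR-22 to miR-378 turned to -0.23 and -0.33 without these livers, in a range of -0.33 to 0.29. The cause was not tested.

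With the total count, the total without miR-720 and no filter, 0 of the 5 were lower at an unadjusted p-value under 0.05, 0 were lower without overlap and 1, miR-33, was higher without overlap. Of all miRNAs tested there, 3 of 174, 4 of 174 and 29 of 566 were lower at the unadjusted threshold and 38, 41 and 54 higher, against 19 and 24 of 174 in the reported fit. The separation of miR-33, which exceeded the background limit in 0 of 3 *Apc+/+* livers, is not read as a result. At a minimum of 60 and after viral subtraction 0 of the 5 were lower without overlap. With 1 liver left out, 0 to 2 of the 5 were lower at the unadjusted threshold, where 8 to 19 of the 154 to 177 tested miRNAs were. Without overlap 0 to 2 were lower and 0 to 1 higher. The share of all miRNAs without overlap is not given for the alternatives, so the counts without overlap are not read as a result about the 5.

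Of the other metabolic miRNAs 5 passed with DESeq2, 2 with the 100 most abundant miRNAs, 2 with the total count, 3 with the total without miR-720, 3 at a minimum of 60, 3 after viral subtraction and 2 with limma. Of all tested miRNAs 29, 7, 17, 21, 18, 15 and 4 passed in the same order. With 1 liver left out, 0 to 3 of the metabolic and 0 to 19 of all tested miRNAs passed, the highest without *Apcfl/fl* liver 3, and 2 and 8 passed without *Apcfl/fl* liver 2. The unadjusted counts of the metabolic list became 2 lower and 2 higher with the total count, the total without miR-720 and no filter, with 2 higher after viral subtraction. With 1 liver left out they were 3 to 5 lower (3 without *Apc+/+* liver 2) and 1 to 3 higher (3 without *Apc+/+* liver 1). Of all tested miRNAs 8 to 19 were lower and 18 to 29 higher in these runs. The median of the list was 0.15 with the total count, 0.15 with the total without miR-720 and -0.042 with no filter, and -0.27 to 0.0099 with 1 liver left out (0.0099 without *Apc+/+* liver 2). The median of all tested miRNAs moved to 0.45, 0.39 and 0.24 with the total count, the total without miR-720 and viral subtraction.

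No sign of pairing by replicate number was seen, as deviations of same-numbered livers correlated at -0.07, -0.08 and 0.13. That check cannot exclude that same-numbered livers belong together, which the labels do not say. With the replicate number as a block the log2 fold change of miR-107 was -1.45 (adjusted p = 0.15, edgeR's test; 0.049 to 0.51 over all alternatives), and 2 of the metabolic and 7 of all tested miRNAs passed.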
